A study of Mus musculus with 2 samples.

Results

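The genes described here are 9 chemokine receptor genes of liver leukocytes, *Ccr1*, *Ccr2*, *Ccr7*, *Ccr9*, *Cx3cr1*, *Cxcr2*, *Cxcr3*, *Cxcr4* and *Cxcr6*. They were taken by name, as a list of receptors, and are 9 of the 16383 genes analysed. Single-cell RNA sequencing was done on nonparenchymal liver cells of male C57BL/6 mice, and control livers were compared with livers carrying nonalcoholic steatohepatitis (NASH). Mice were 8 weeks old when their diets began, and these lasted 6 weeks. Controls received a standard low-fat diet, and NASH mice a diet deficient in methionine and choline (MCD). The livers of 3 mice per diet were pooled before capture on the BD Rhapsody platform, which labels each transcript with its cell and with a unique molecular identifier (UMI), so the data hold 1 control and 1 NASH library. The MCD diet is a dietary model without a genetic change, and no value here can be traced to a single mouse.

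Chemokine receptors are membrane proteins coupled to inhibitory G proteins, and they steer leukocytes along gradients of the small proteins called chemokines. In the liver they are known for the entry of monocytes and neutrophils from the blood, for the patrol of the sinusoids by T cells and innate lymphocytes, and for the exit of dendritic cells to lymph nodes. A receptor level summed over a tissue sample depends both on how many cells of each type the sample holds and on the level within each type, and both are given below.

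Levels were computed from the UMIs of all cells of a class in 1 library, divided by the total UMIs of those cells and given as counts per 1000000 (CPM). Totals, depth and CPM cover the genes analysed, which run alphabetically to *Rad54l2*, and not those after it. Ratios are on the log2 scale, NASH over control, after 0.5 UMI had been added to each sum. Intervals are exact 95% intervals and cover counting error only. Because each diet gave 1 library, a difference between diets could not be tested, and the spread between mice is not known. A ratio of 1.5 times or more either way in a class with at least 50 UMIs of the gene over both libraries is called higher or lower, by its size alone. Each cell was also thinned at random to 500 UMIs, and the share of cells still holding a UMI of the gene was counted, which removes differences in depth between cells.

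After removal of cells under 500 UMIs or 200 genes, 4209 control and 3710 NASH cells remained, with a median of 1683 and 1654 UMIs. The libraries shared 21 cell labels, and cells were told apart by library and label together. Clustering left the chemokine receptor genes out, so that their levels did not form the classes. It gave 2572 control and 1607 NASH leukocytes in 19 clusters and 10 classes, each named after the markers that led it. A set of 173 cells with both endothelial and leukocyte genes was left out. The classes are T cell-like (526 control and 317 NASH cells), B cell-like (597 and 180), Kupffer cell-like (475 and 435), neutrophil-like (445 and 113), macrophage-like (53 and 281) and dendritic cell-like cells (111 and 113). NK cell- or group 1 innate lymphoid cell (ILC)-like (115 and 75), monocyte-like (92 and 63), plasma cell-like (108 and 6) and plasmacytoid dendritic cell (pDC)-like cells (50 and 24) made up the rest. Each marker on the list of a class that was among the genes analysed was detected in that class in both libraries. Between 13 and 21 of them per class were higher there than in the other leukocytes, with the fewest in the macrophage-like cells, where 13 of 20 in NASH cells and 15 of 20 in control cells lay above. Free RNA adds UMIs to cells that lack a gene. Endothelial-like cells were used as a comparison for it, at a median depth of 1513 UMIs. Of their 3319 cells 0.151% (*Ccr9*) to 3.40% (*Cxcr4*) held a UMI of a given receptor. A UMI there can also come from the cell itself or from a leukocyte captured with it, and these were not told apart. The 31 *Cx3cr1* UMIs of control endothelial-like cells, for example, lay in 9 of 1414 cells.

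The promoters of 4 of the genes are shown for the kinds of cell in which the genes were found. *Cxcr2* was found almost only in neutrophil-like cells, *Cxcr3* and *Cxcr6* were highest in T cell-like and NK cell- or ILC-like cells, and *Cxcr4* was found in all classes. The sequences are the 250 bases before the start of the gene in RefSeq (GRCm38.p6), read 5′ to 3′ on the strand of the gene. The regions are chr1:74153744-74153993 on the plus strand for *Cxcr2*, chrX:101734148-101734397 on the minus strand for *Cxcr3*, chr9:123806227-123806476 on the plus strand for *Cxcr6* and chr1:128592300-128592549 on the minus strand for *Cxcr4*. Capitals mark matches, on either strand, to GAGGAA (an ETS motif), TGTGGT (a RUNX motif), AGGTGT (a T-box motif), TTGCNNCAA (a C/EBP motif) and GGGCGG (a GC box). These letters were chosen with the sequences known.
Cxcr2: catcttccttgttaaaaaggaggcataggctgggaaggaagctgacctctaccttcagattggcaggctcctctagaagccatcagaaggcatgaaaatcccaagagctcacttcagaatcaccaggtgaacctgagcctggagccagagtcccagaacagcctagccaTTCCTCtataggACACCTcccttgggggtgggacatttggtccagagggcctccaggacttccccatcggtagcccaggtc
Cxcr3: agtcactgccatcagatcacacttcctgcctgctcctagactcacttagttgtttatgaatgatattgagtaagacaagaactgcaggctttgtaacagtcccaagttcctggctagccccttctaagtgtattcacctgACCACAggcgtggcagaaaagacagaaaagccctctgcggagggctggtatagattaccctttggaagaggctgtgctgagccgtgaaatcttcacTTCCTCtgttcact
Cxcr6: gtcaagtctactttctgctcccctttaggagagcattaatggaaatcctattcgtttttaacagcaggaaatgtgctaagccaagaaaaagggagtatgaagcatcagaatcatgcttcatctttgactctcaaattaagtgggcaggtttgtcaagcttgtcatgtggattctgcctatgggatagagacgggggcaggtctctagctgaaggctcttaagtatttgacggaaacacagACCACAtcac
Cxcr4: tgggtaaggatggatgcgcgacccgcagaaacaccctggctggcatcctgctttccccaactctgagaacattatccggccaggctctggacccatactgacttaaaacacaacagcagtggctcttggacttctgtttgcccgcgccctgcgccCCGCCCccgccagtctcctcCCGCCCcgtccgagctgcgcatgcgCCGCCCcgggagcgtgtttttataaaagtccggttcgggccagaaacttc

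A match to these letters is a description and not a site. The *Cxcr3* window held an ETS match 14 to 9 bases before the start and a RUNX match 110 to 105 bases before it, and the *Cxcr6* window a RUNX match 10 to 5 bases before the start. The *Cxcr2* window held an ETS match 81 to 76 bases and a T-box match 69 to 64 bases before the start. The *Cxcr4* window held 3 GC boxes and no other match, and none of the 4 windows held the C/EBP letters. RUNX matches also lay in the windows of the myeloid genes *Ccr1* (58 to 53 bases before the start, with an ETS match at 129 to 124) and *Cx3cr1* (54 to 49 bases). The start here is that of RefSeq. In the GENCODE coordinates of the next paragraph *Cxcr3* reaches 101734269 and *Cx3cr1* 120069879, both on the minus strand. The matches named for *Cxcr3* and *Cx3cr1* lie inside the gene by those coordinates. Among 32851 promoters of the same length in the same table, 23.3% held the ETS letters, 14.05% the RUNX letters, 11.8% the T-box letters, 1.74% the C/EBP letters and 32.7% a GC box. Of the 9 genes 8 had a promoter in the table. *Ccr7* had no entry.

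In GRCm38 (GENCODE M21) *Ccr9* (chromosome 9, 123678439 to 123784330), *Cxcr6* (123806475 to 123811760), *Ccr1* (123962124 to 123968692) and *Ccr2* (124101950 to 124113557) are near each other on chromosome 9, with gaps of 22.1, 150.4 and 133 kb between the gene ends. The highest level of these neighbours lay in a different class for each, in pDC-like, T cell-like, neutrophil-like and monocyte-like cells. *Cx3cr1* lies on chromosome 9 from 119901616 to 120069879, *Ccr7* on chromosome 11 from 99144196 to 99155077, *Cxcr2* on chromosome 1 from 74153989 to 74161246, *Cxcr4* on chromosome 1 from 128588199 to 128592293 and *Cxcr3* on chromosome X from 101731535 to 101734269.

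**Figure D1:**
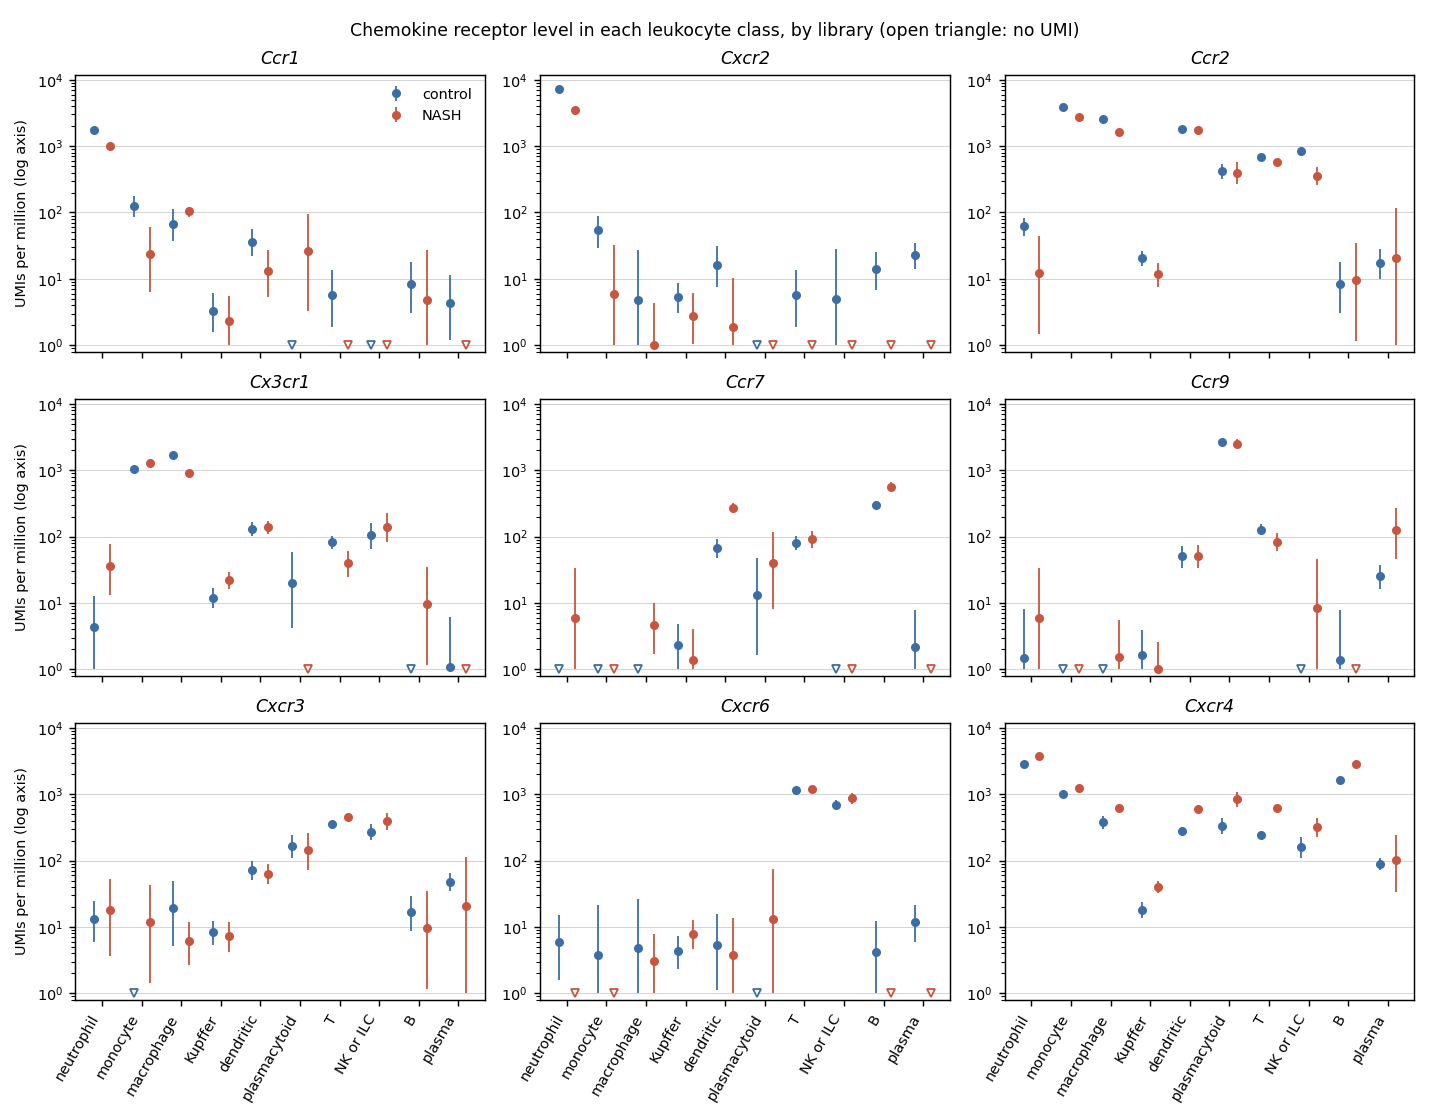
Level of each receptor gene in the 10 leukocyte classes (named by their markers, each an X-like class), with control in blue and NASH in red, in CPM on a log axis. Points are summed levels, bars exact Poisson 95% intervals cut off at 1, and open triangles classes without a UMI. *Cxcr2* stands at 7191 CPM in control neutrophil-like cells and below 100 CPM in every other class.

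*Cxcr2*, the receptor for the neutrophil-attracting chemokines of the CXC family, was almost confined to neutrophil-like cells in both libraries. They held 4892 of the 4969 *Cxcr2* UMIs of control leukocytes and 581 of the 590 of NASH leukocytes. Their level was 7191 CPM (6991 to 7396) in control cells and 3496 CPM (3217 to 3792) in NASH cells, a log2 ratio of -1.04 (-1.17 to -0.92). A *Cxcr2* UMI was found in 442 of 445 control and 82 of 113 NASH neutrophil-like cells.

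*Ccr1*, a receptor of the inflammatory CC chemokines, was highest in the same class. It stood at 1743 CPM (1646 to 1846) in control and 1005 CPM (858 to 1169) in NASH neutrophil-like cells, a log2 ratio of -0.79 (-1.04 to -0.56). With cells classed one by one from their marker UMIs the ratio was -0.54, within the called size. Of the 3 members with enough UMIs in this class 2 were called lower, beside 19.9% of 2223 genes. The other, *Cxcr4*, differed by less than the called size, with 2861 and 3754 CPM. In macrophage-like cells *Ccr1* stood at 67.6 CPM (37.0 to 113) and 104 CPM (86.8 to 123), and in monocyte-like cells 33 control and 4 NASH UMIs gave 126 CPM (86.9 to 177) and 23.5 CPM (6.40 to 60.2). The macrophage-like cells held 135 of the 321 *Ccr1* UMIs of NASH leukocytes against 14 of 1278 in control leukocytes.

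The neutrophil-like class joined 2 clusters, and their balance differed between the diets. The main cluster, led by *Nlrp12* and the granule gene *Lcn2*, held 426 control and 63 NASH cells, and the other, led by the itaconate synthesis gene *Acod1*, held 19 and 50. In the main cluster *Cxcr2* stood at 7377 CPM (7169.5 to 7589) in control and 6100.04 CPM (5582 to 6653) in NASH cells, with a UMI in 63 of 63 NASH cells. In the *Acod1* cluster it stood at 3514 CPM (2901 to 4218) and 859.5 CPM (671 to 1084), with a UMI in 17 of 19 control and 19 of 50 NASH cells. The log2 ratio was -0.27 (-0.41 to -0.14) in the first and -2.03 (-2.48 to -1.59) in the second cluster. For *Ccr1* the ratios were -0.18 (-0.46 to 0.08) and -1.55 (-2.23 to -0.88), from 1765 to 1555 CPM in the main cluster and from 1314 to 448 CPM in the *Acod1* cluster. Both genes were thus lower by the called size in the *Acod1* cluster, beside 23.6% of 419 genes, and within it in the main cluster. *Cxcr4* in NASH cells stood at 3172 CPM (2799 to 3580.03) in the *Acod1* cluster, against 4329.8 CPM (3895 to 4799.7) in the main one. The 2 clusters were divided by their other genes, and only 19 control cells lay in the *Acod1* cluster.

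*Ccr2*, the receptor of the monocyte attractant CCL2, was found in monocyte-like, macrophage-like, dendritic cell-like, NK cell- or ILC-like, T cell-like and pDC-like cells. In control cells these stood in that order from 3948 CPM (3711 to 4197) down to 2531 (2319 to 2757), 1834 (1723 to 1950.3), 833 (711 to 969), 685 (631 to 743) and 422 CPM (324 to 539), and of neighbours in this order only NK cell- or ILC-like and T cell-like cells had overlapping intervals. In NASH cells they stood at 2755 CPM (2511 to 3016), 1627 (1558 to 1697), 1739.8 (1629.6 to 1855), 359 (259.7 to 483), 573 (509 to 644) and 399 CPM (269 to 569.8). In the clustering used here the ratio lay below 0 in all 7 classes with enough UMIs, Kupffer cell-like cells included, and was called lower in 3 of them. Over the 13 clusters with enough UMIs it was below 0 in 9 and above 0 in 4. With the coarser clustering and with both clustering steps repeated, the macrophage-like ratio was above 0, at 0.23 and 0.57. Over all leukocytes *Ccr2* stood higher in NASH cells, at 741 CPM (718 to 764) against 466 CPM (451 to 482).

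Among monocyte-like cells *Ccr2* separated 2 clusters whose leading genes are those of classical and of patrolling blood monocytes, although it was not used to form them. All 45 control and all 19 NASH cells of the cluster led by *F13a1* and *Fn1*, genes of classical monocytes, held a *Ccr2* UMI, at 6140.1 CPM (5757 to 6542) and 5679 CPM (5141 to 6259). In the cluster led by *Ace* and *Eno3*, genes of patrolling monocytes, 14 of 47 control and 12 of 44 NASH cells did, at 736 CPM (582 to 918) and 629 CPM (482 to 806). The class-wide log2 ratio of -0.52 (-0.68 to -0.36) lay further from 0 than that within either cluster, -0.11 (-0.28 to 0.056) and -0.22 (-0.73 to 0.27). The *F13a1* cluster made up 48.9% (38.3 to 59.6) of control and 30.2% (19.2 to 43.0) of NASH monocyte-like cells. A coarser clustering joined this cluster with the *Gpnmb* cluster described next into 1 monocyte-like cluster, and the ratio of the class was then -1.11.

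The macrophage-like cells were a class of 53 control and 281 NASH cells, and they held 14.9% of the *Ccr2* UMIs of control leukocytes and 54.3% of those of NASH leukocytes. In their cluster led by *F10* and the lysosomal gene *Gpnmb*, the 50 leading genes held 5 macrophage markers and 4 monocyte markers. The first 10 held 2 and 0. *Ccr2* stood in this cluster at 3545 CPM (3199 to 3918) in 26 control cells and 1607 CPM (1528 to 1689) in 195 NASH cells. The log2 ratio of -1.14 (-1.30 to -0.98) was called lower, beside 18.3% of 3206 genes. In the cluster led by *Olfml3* and *Pf4*, a platelet factor gene also found in macrophages, it stood at 1418 CPM (1193 to 1674) in 27 control cells and 1681 CPM (1547 to 1823) in 86 NASH cells. For the class as a whole the ratio of -0.64 (-0.78 to -0.50) was called lower, beside 14.9% of 4022 genes. This call depended on which cells were counted as macrophage-like. The coarser clustering left 28 control and 88 NASH cells in the class, all but 1 and 2 of them from the *Olfml3* cluster, and the ratio was 0.23. When both clustering steps were repeated with rounded components, the class held 33 control and 90 NASH cells, with 5 control cells taken over from the Kupffer cell-like class, and the ratio was 0.57. With cells classed one by one from their marker UMIs it was -0.0021.

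Among the lymphocytes *Ccr2* was lower in NASH cells of some clusters and near the control level in others. In the NK cell- or ILC-like cluster led by *Ncr1* and *Klrb1b*, receptors of natural killer and innate lymphoid cells, 35 of 86 control cells and 6 of 57 NASH cells held a *Ccr2* UMI. The level there was 699 CPM (572 to 847) in control and 87.0 CPM (37.6 to 171) in NASH cells, a log2 ratio of -2.93 (-4.26 to -1.98) beside 8.85% of 1006 genes lower by the called size. After thinning 24.4% (15.8 to 34.9) of control and 1.75% (0.0444 to 9.39) of NASH cells held a UMI. The highest *Ccr2* count of a control cell was 8 UMIs, and without that cell the ratio was -2.83. In the other cluster of the class, led by *Klra8*, *Klra4* and the perforin gene *Prf1*, *Ccr2* stood at 1239 CPM (948 to 1591) in 29 control and 1256 CPM (875 to 1747) in 18 NASH cells. The ratio of the class was -1.20 (-1.73 to -0.72). Of the 4 members with enough UMIs in it *Ccr2* was the 1 called lower, beside 6.61% of 1362 genes.

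The T cell-like cells also differed from cluster to cluster. The largest cluster was led by *Cd40lg*, *Il2rb* and *Ifng*. Its 50 leading genes held 9 T cell markers and 4 markers of NK cells or group 1 ILCs. The first 10 held 2 of each, the latter being *Il2rb* and *Klrb1c*. In this cluster *Ccr2* stood at 859 CPM (771 to 953) in control and 944 CPM (829 to 1070.1) in NASH cells, with a UMI in 136 of 226 and 105 of 165 cells. In the cluster led by *Lef1* and *Il7r*, genes of naive and resting T cells, it stood at 388 CPM (320.03 to 465) and 81.3 CPM (35.1 to 160.3), with a UMI in 37 of 202 and 4 of 74 cells. In the cluster led by *Gzmk* and *Cd8b1*, genes of CD8 T cells, it stood at 795 CPM (662 to 947) and 248 CPM (173 to 343), with a UMI in 39 of 98 and 19 of 78 cells. The log2 ratios were 0.14 (-0.10 to 0.38), -2.17 (-3.50 to -1.23) and -1.67 (-2.26 to -1.14). *Ccr2* was called lower in the second and the third of these clusters, beside 10.1% of 1725 and 10.2% of 1290 genes. Over the whole class the levels were 685 and 573 CPM, and the *Cd40lg* cluster made up 43.0% (38.7 to 47.3) of control and 52.1% (46.4 to 57.7) of NASH T cell-like cells.

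**Figure D2:**
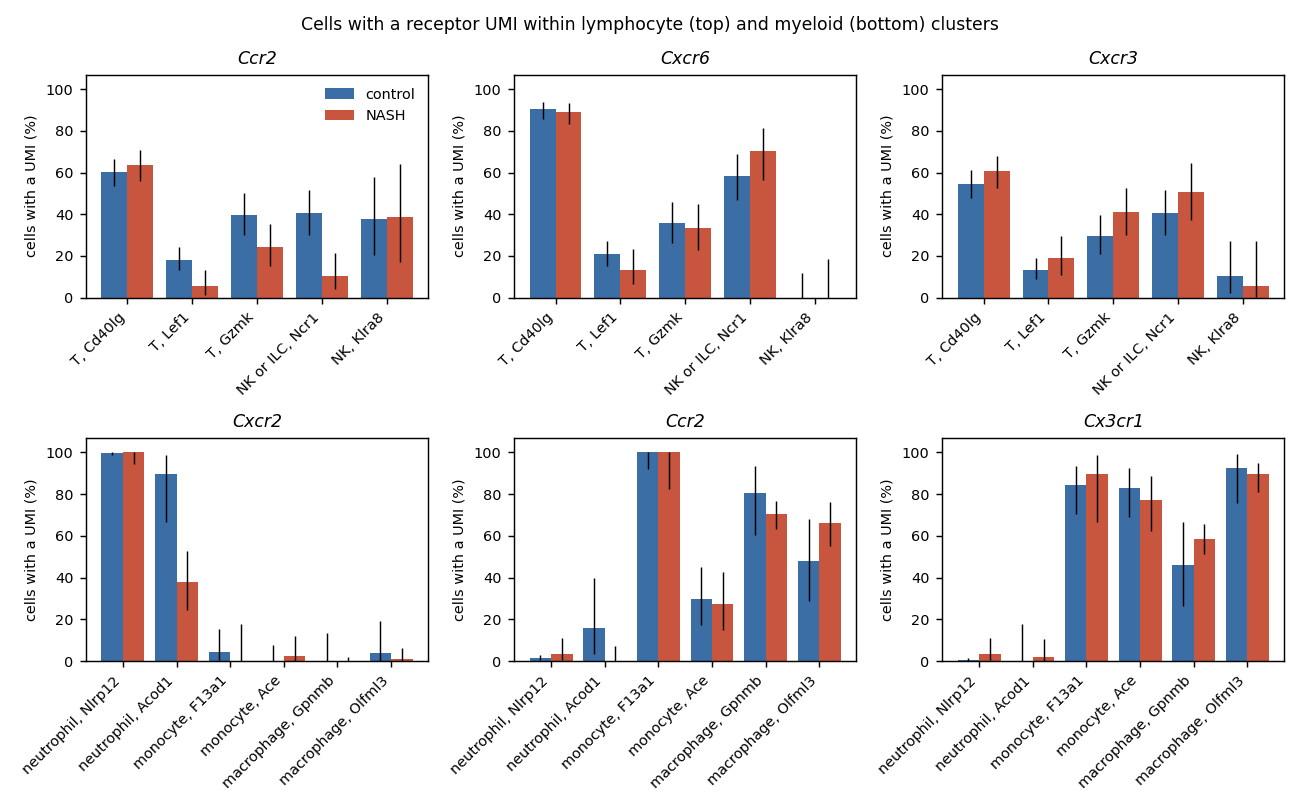
Percentage of cells in which a receptor gene was detected, in lymphocyte clusters (top) and myeloid clusters (bottom), on an axis from 0, for control (blue) and NASH (red). Error bars are exact binomial 95% intervals, and clusters are named by class and a leading gene. *Ccr2* is found in 40.7% of control and 10.5% of NASH cells of the *Ncr1* cluster, and *Cxcr6* in none of the *Klra8* cluster.

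Dendritic cell-like cells held *Ccr2* at 1834 CPM and, in NASH, 1739.8 CPM, a log2 ratio of -0.076 (-0.21 to 0.053), and both of their clusters stood near this level. In pDC-like cells 22 of 50 control and 11 of 24 NASH cells held a *Ccr2* UMI, with a ratio of -0.067 (-0.76 to 0.57). In Kupffer cell-like cells *Ccr2* was at 20.3 CPM (15.5 to 26.1) in control and 11.6 CPM (7.53 to 17.2) in NASH cells, a ratio of -0.79 (-1.54 to -0.11). It was the 1 of 3 members called lower there, beside 3.76% of 6057 genes. Of its 61 control UMIs 17 came from 1 cell, and without that cell the ratio was -0.32, within the called size. After thinning 1.05% of control Kupffer cell-like cells held a UMI, against 0.424% of control endothelial-like cells. In NASH the shares were 0.690% and 0.945%, so the NASH share was not above that of endothelial-like cells.

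*Cx3cr1*, the receptor of the membrane-bound chemokine fractalkine, was highest in monocyte-like and macrophage-like cells. It stood at 1044 CPM (924 to 1176) in control and 1280.4 CPM (1116 to 1462) in NASH monocyte-like cells, and at 1691 CPM (1518 to 1877) and 903 CPM (852 to 956) in macrophage-like cells. The *Ace* monocyte cluster was at 1217 CPM (1016 to 1446) and 1308 CPM (1092 to 1555) and the *F13a1* cluster at 927 CPM (782 to 1091) and 1242 CPM (997 to 1528). The clusters of macrophage-like cells lay further apart. The one led by *Olfml3* stood at 2989 CPM (2658 to 3350.2) in control and 2006 CPM (1859.7 to 2160.4) in NASH cells, and the *Gpnmb* cluster at 508 CPM (383 to 661) and 502 CPM (458 to 549). The class-wide ratio of -0.91 (-1.08 to -0.73), called lower, lay further from 0 than that within either cluster, -0.58 (-0.77 to -0.37) and -0.028 (-0.42 to 0.41). The *Gpnmb* cluster made up 49.1% (35.1 to 63.2) of control and 69.4% (63.6 to 74.7) of NASH cells of the class. With the coarser clustering the macrophage-like ratio was -0.56, within the called size, and the monocyte-like one -0.52 in place of 0.29 (0.03 to 0.56). With both clustering steps repeated on rounded components these ratios were -0.22 and -0.51.

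Among lymphocytes *Cx3cr1* was found in the *Gzmk* T cell-like cluster, in 35 of 98 control and 7 of 78 NASH cells. Its level there was 410.3 CPM (317 to 523) in control and 124 CPM (73.4 to 196) in NASH cells, a log2 ratio of -1.70 (-2.57 to -0.96). This cluster held 83 of the 91 *Cx3cr1* UMIs of T cell-like cells, and the class-wide ratio was -1.02 (-1.84 to -0.31). Of the 7 members with enough UMIs in T cell-like cells 2 were called lower, *Cx3cr1* and *Ccr9*, beside 5.83% of 4308 genes. The *Klra8* cluster of the NK cell- or ILC-like class held 33 of the 38 *Cx3cr1* UMIs of that class. In Kupffer cell-like cells *Cx3cr1* stood at 12.0 CPM (8.39 to 16.6) and 21.9 CPM (16.1 to 29.1), a ratio of 0.86 (0.21 to 1.54) that was 0.48 without the NASH cell of most UMIs. After thinning 0.421% of control and 0.920% of NASH Kupffer cell-like cells held a UMI, against 0.424% and 0.577% of endothelial-like cells.

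*Ccr7*, which guides naive lymphocytes and mature dendritic cells to lymph nodes, was found in B cell-like, T cell-like and dendritic cell-like cells. In B cell-like cells it stood at 304 CPM (265 to 347) in control and 561 CPM (464 to 673) in NASH cells, with a UMI in 152 of 597 and 67 of 180 cells. The log2 ratio was 0.89 (0.55 to 1.22), and the share of cells with a UMI after thinning was 14.2% (11.5 to 17.3) and 22.8% (16.9 to 29.6). Both members with enough UMIs in B cell-like cells, *Ccr7* and *Cxcr4*, were called higher, beside 6.18% of 3317 genes. Among T cell-like cells *Ccr7* was highest in the *Lef1* cluster, at 192 CPM (146 to 249) in control and 325 CPM (223 to 459) in NASH cells. The ratio of 0.77 (0.088 to 1.41) was called higher, as was that of *Cxcr4*, beside 9.45% of 1725 genes. This cluster made up 38.4% (34.2 to 42.7) of control and 23.3% (18.8 to 28.4) of NASH T cell-like cells, and over the whole class the levels were 80.9 and 91.6 CPM.

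In dendritic cell-like cells *Ccr7* stood at 66.5 CPM (46.8 to 91.7) in control and 268 CPM (226 to 316) in NASH cells. The log2 ratio of 2.00 (1.48 to 2.57) lay furthest from 0 among the called pairs of a member and a class, and it rested on few cells. Its UMIs lay in the cluster led by *Mgl2* and *Cd209a*, in 7 of 71 control and 17 of 72 NASH cells. When both clustering steps were repeated with rounded components, a small group met the markers of mature dendritic cells, with 6 control and 17 NASH cells, 5.41% (2.01 to 11.4) and 15.04% (9.01 to 23.0) of the dendritic cell-like cells. It held 35 of the 37 control and 140 of the 143 NASH *Ccr7* UMIs. Within this group *Ccr7* stood at 1367 CPM (952 to 1901) in control and 1635 CPM (1375 to 1929) in NASH cells, with overlapping intervals. The other dendritic cell-like cells were at 3.77 CPM (0.457 to 13.6) and 6.70 CPM (1.38 to 19.6). The group was looked at after the class-wide value had been seen, and it did not form a cluster of its own in the clustering used here. With cells classed one by one from their marker UMIs, a rule that also has a mature dendritic cell class, the remaining dendritic cells held 3 *Ccr7* UMIs over both libraries and their ratio was -2.60.

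*Ccr9*, the receptor of the gut and thymus chemokine CCL25, was highest in pDC-like cells. A UMI was found in 48 of 50 control and 24 of 24 NASH cells of this class, which held 584 of the 832 *Ccr9* UMIs of leukocytes. Its level was 2637 CPM (2383 to 2910.3) in control and 2528 CPM (2181 to 2914) in NASH cells, a ratio of -0.059 (-0.32 to 0.19). T cell-like cells stood at 127 CPM (105 to 153) and 83.6 CPM (60.3 to 113), a ratio of -0.59 (-1.15 to -0.08) that lay just past the called size and, among cells with at least 1000 UMIs, within it at -0.56. After thinning, a UMI was found in 4.94% of control and 4.73% of NASH T cell-like cells, so a difference in share was not detectable at this depth. In plasma cell-like cells 9 of 108 control cells and 3 of 6 NASH cells held a *Ccr9* UMI.

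*Cxcr6*, the receptor of the membrane-bound chemokine CXCL16 and a marker of liver-resident lymphocytes, and *Cxcr3*, the receptor of the interferon-induced chemokines CXCL9 and CXCL10, were both highest in T cell-like cells and next in NK cell- or ILC-like cells. *Cxcr6* stood at 1169.8 CPM (1099 to 1244) in control and 1222 CPM (1128 to 1323) in NASH T cell-like cells, and at 697 CPM (586 to 823) and 876 CPM (717 to 1061) in NK cell- or ILC-like cells. The ratios of 0.064 (-0.084 to 0.21) and 0.33 (-0.05 to 0.71) were not called. *Cxcr3* stood at 358 CPM (319.6 to 401) and 449.96 CPM (393 to 513) in T cell-like cells and at 271 CPM (203 to 353) and 392 CPM (288 to 522) in NK cell- or ILC-like cells. Its ratios were 0.33 (0.075 to 0.58) and 0.54 (-0.061 to 1.13), and neither reached the called size.

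Within these classes *Cxcr6* marked some clusters more than others. In the *Cd40lg* T cell-like cluster 204 of 226 control and 147 of 165 NASH cells held a *Cxcr6* UMI, at 2051 CPM (1915 to 2195) and 2124 CPM (1949.8 to 2309). In the *Gzmk* cluster it stood at 467 CPM (367 to 586) and 351 CPM (261 to 461), and in the *Lef1* cluster at 327 CPM (265 to 399) and 142 CPM (77.8 to 239), a ratio of -1.16 (-2.12 to -0.38). The *Ncr1* cluster of the NK cell- or ILC-like cells held 244 of the 244 *Cxcr6* UMIs of its class, with a UMI in 50 of 86 control and 40 of 57 NASH cells. In the *Klra8* cluster 0 of 29 control and 0 of 18 NASH cells held one, which allows shares of up to 11.9% and 18.5% (exact 95% limits). These limits are on cells with a UMI and not on cells that express the gene. *Cxcr3* was found in 35 of 86 and 29 of 57 cells of the *Ncr1* cluster against 3 of 29 and 1 of 18 of the *Klra8* cluster.

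*Cxcr3* was also found in dendritic cell-like cells. In the cluster led by *Gcsam* 20 of 40 control and 18 of 41 NASH cells held a UMI, and in the *Mgl2* cluster 1 of 71 and 1 of 72 did. Its level in the *Gcsam* cluster was 146 CPM (103 to 199) in control and 135 CPM (92.5 to 191) in NASH cells. A *Cxcr3* UMI was found in 25 of 108 plasma cell-like cells of the control, whose median depth was 8638 UMIs, and in 5.56% of them after thinning.

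*Cxcr4*, the receptor of the stromal chemokine CXCL12 that holds cells in bone marrow and tissue, was the member with enough UMIs in each class, and its NASH level was above the control level in all 10 of them in the clustering used here. The ratio reached the called size in 7 classes. In T cell-like cells the level was 247 CPM (215 to 283) in control and 615 CPM (549 to 688) in NASH cells, a ratio of 1.31 (1.06 to 1.57) beside 5.25% of genes higher by the called size. In B cell-like cells it was 1663 CPM (1569.97 to 1760.04) and 2888 CPM (2662 to 3128), a ratio of 0.80 (0.65 to 0.94). In dendritic cell-like cells it was 277 CPM (235 to 324) and 596 CPM (532 to 665), a ratio of 1.10 (0.82 to 1.39), where *Cxcr4* and *Ccr7* were the 2 of 6 members called higher beside 6.12% of 3514 genes. In pDC-like cells it was 335 CPM (248 to 441) and 838 CPM (644 to 1072), a ratio of 1.32 (0.77 to 1.89) beside 8.63% of 927 genes.

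The ratio was also called in macrophage-like, NK cell- or ILC-like and Kupffer cell-like cells. In macrophage-like cells it stood at 382 CPM (302 to 476) and 632 CPM (589.5 to 677), a ratio of 0.72 (0.39 to 1.08) beside 14.7% of genes. With the coarser clustering that ratio was -0.10 and the monocyte-like one -0.04, so that 8 of the 10 classes stayed above 0. In NK cell- or ILC-like cells 32 control and 38 NASH UMIs gave a ratio of 0.98 (0.27 to 1.71) beside 7.34% of genes, and without the NASH cell of most UMIs it was 0.57, within the called size. In Kupffer cell-like cells *Cxcr4* stood at 18.0 CPM (13.5 to 23.5) and 40.5 CPM (32.4 to 49.9), where *Cxcr4* and *Cx3cr1* were called higher beside 4.8% of genes. After thinning 1.68% of control and 1.84% of NASH cells of this class held a UMI, against 0.849% and 1.26% of endothelial-like cells. In neutrophil-like and monocyte-like cells the ratios were 0.39 (0.26 to 0.52) and 0.27 (0.0021 to 0.54), and in plasma cell-like cells 0.34 (-1.45 to 1.49) with 6 NASH cells. Over the 18 clusters with enough UMIs the ratio was above 0 in 17, the exception being the *Olfml3* macrophage-like cluster at -0.13 (-0.69 to 0.49).

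The cluster with the *Cxcr4* ratio furthest from 0 was the one in which the gene was lowest among T cell-like cells. In the *Cd40lg* cluster it stood at 61.0 CPM (39.5 to 90.0) in control and 306 CPM (242 to 381) in NASH cells, with a UMI in 20 of 226 and 49 of 165 cells and a ratio of 2.31 (1.66 to 3.04) beside 5.85% of 2702 genes. In the *Lef1* cluster it stood at 425 CPM (354 to 506) and 976 CPM (791 to 1192), and in the *Gzmk* cluster at 398 CPM (306 to 509) and 921 CPM (772 to 1091). After thinning, the share of T cell-like cells with a *Cxcr4* UMI was 11.6% (8.99 to 14.6) in control and 24.0% (19.4 to 29.1) in NASH cells, and that of B cell-like cells 49.7% (45.7 to 53.8) and 66.1% (58.7 to 73.0).

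*Cxcr4* is known as a gene that cells can induce after they are taken from tissue, and genes of the early response were therefore set beside it. There were 18 such genes, chosen after the values of *Cxcr4* had been seen, among them *Fos*, *Jun*, *Ier5* and *Dusp1*. In T cell-like cells 3 of 17 with enough UMIs were higher and 0 lower, with a median log2 ratio of 0.22, beside 5.25% of all genes higher. The count was 1 of 15 higher in B cell-like cells (median 0.16), 2 of 17 in dendritic cell-like cells (0.052) and 5 of 18 in Kupffer cell-like cells (0.35), with 0 lower in each, beside 6.18%, 6.12% and 4.8% of all genes higher. It was 5 of 13 higher and 1 lower in pDC-like cells (0.24), 7 of 18 higher and 1 lower in macrophage-like cells (0.21), and 1 of 15 higher and 4 lower in NK cell- or ILC-like cells (-0.13). Of all genes 8.63%, 14.7% and 7.34% were higher and 7.01%, 14.9% and 6.61% lower in these 3 classes. Where *Cxcr4* was not called, it was 2 of 18 higher and 3 lower in neutrophil-like cells (-0.091), 1 of 17 higher and 2 lower in monocyte-like cells (-0.14) and 4 of 13 higher in plasma cell-like cells (0.52), beside 18.6%, 8.47% and 21.7% of all genes higher, and 19.9% and 7.81% lower in the first 2. The summed level of the 18 genes in T cell-like cells was 14713 CPM in control and 16824 CPM in NASH cells, and their part in the *Cxcr4* values was not tested.

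**Figure D3:**
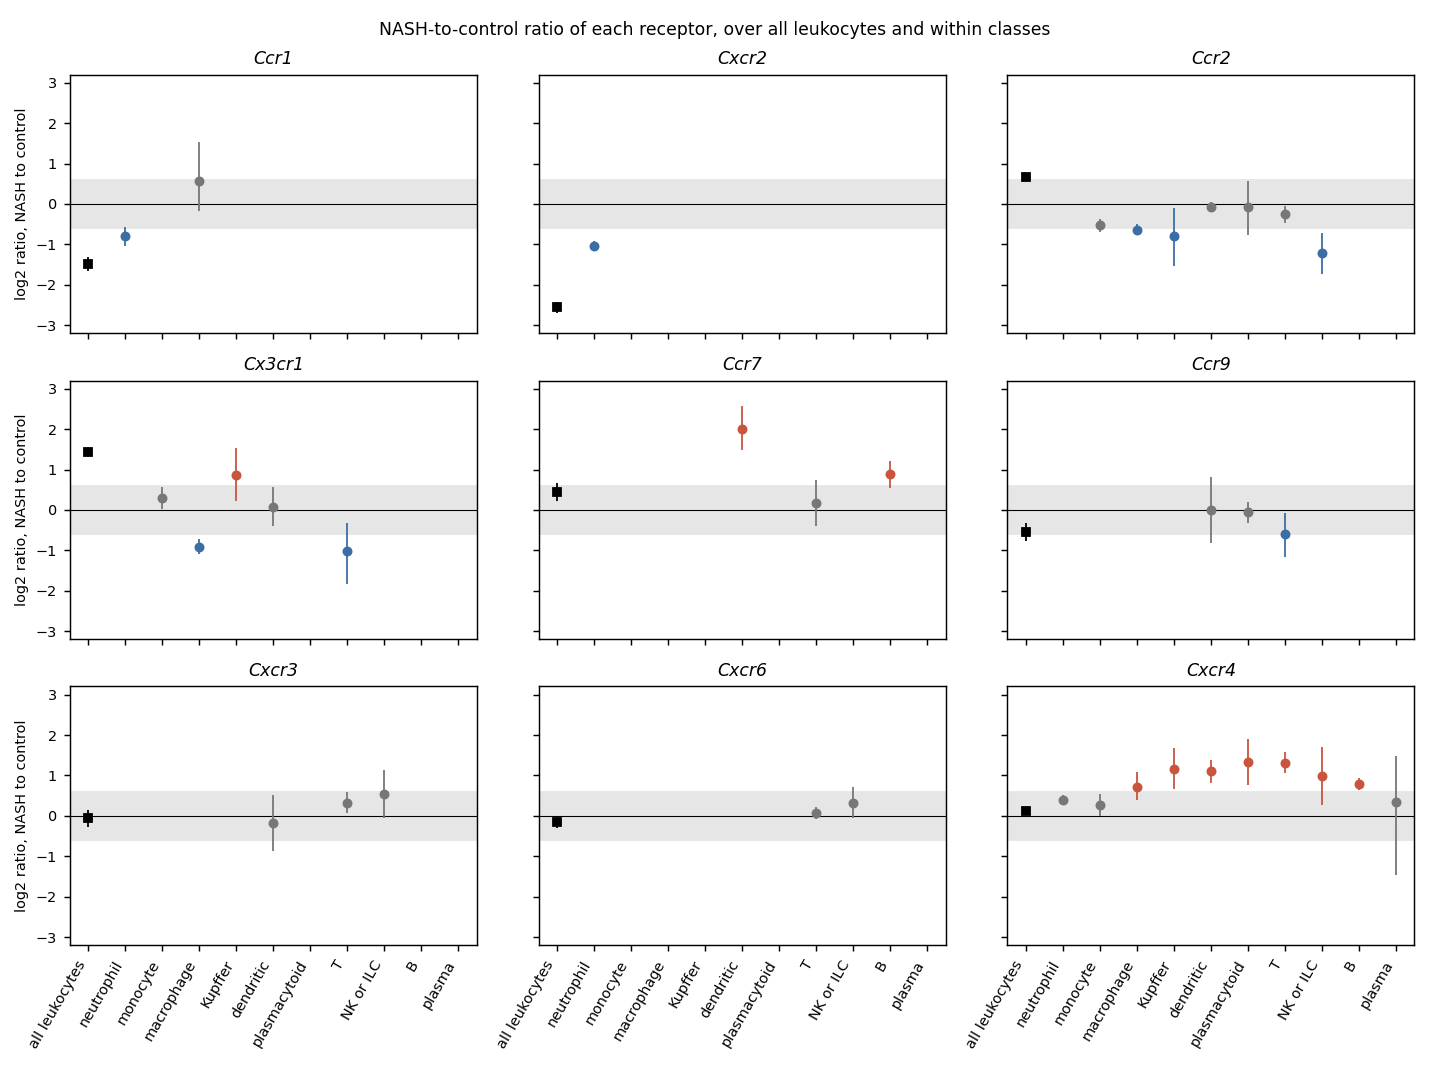
Log2 ratio of the NASH to the control level for each receptor gene over all leukocytes (black squares) and within classes with at least 50 UMIs (circles, red where called higher, blue where called lower, grey between). Bars are 95% intervals for counting error and the grey band marks ratios within 1.5 times. *Cxcr4* lies above 0 in all 10 classes, and *Ccr2* below 0 in all 7 classes shown although above 0 over all leukocytes.

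Over the 90 pairs of a member and a class 36 had enough UMIs, of which 10 were called higher, 8 lower and 18 neither. Of all genes with enough UMIs in a class, 8.57% (Kupffer cell-like) to 45.3% (plasma cell-like) were called either way. In T cell-like, macrophage-like and neutrophil-like cells this share was 11.1%, 29.5% and 38.6%. *Cxcr4* made up 7 of the higher pairs and *Ccr2* 3 of the lower ones. Over all leukocytes 2 members were called higher, *Ccr2* (0.67) and *Cx3cr1* (1.43), beside 7.3% of 7784 genes, and 2 lower, *Ccr1* (-1.47) and *Cxcr2* (-2.56), beside 9.76%. The median ratio of the 9 members was -0.061, and that of all genes 0.012. Sums over all leukocytes mix the number of cells of each type with the level in them, and the classes separate these only as far as the pooled livers released their cells alike.

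To see how far the makeup of the leukocytes goes with the sums, the NASH level was recomputed with each class at its control share of UMIs, with no UMI added. *Ccr2* then went from 0.67 to -0.37 and *Cx3cr1* from 1.43 to -0.13, so that neither stood higher. Macrophage-like cells, which carry both genes, were 2.06% (1.55 to 2.69) of control and 17.5% (15.7 to 19.4) of NASH leukocytes by number of cells. They held 207020 of 7553091 control and 1303887 of 5276835 NASH leukocyte UMIs. *Cxcr2* went from -2.56 to -1.06 and *Ccr1* from -1.48 to -0.80, and, with each cluster rather than each class held at its control share, to -0.32 and -0.24. Neutrophil-like cells were 17.3% (15.9 to 18.8) of control and 7.03% (5.83 to 8.39) of NASH leukocytes by number, with 680256 and 166209 of these UMIs.

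*Cxcr4* and *Ccr7* went the other way. *Cxcr4* stood at 0.11 over all leukocytes and at 0.64 with the classes held at control shares, and *Ccr7* went from 0.44 to 0.94. B cell-like cells, which carry both genes, were 23.2% (21.6 to 24.9) of control and 11.2% (9.70 to 12.8) of NASH leukocytes by number, with 717993 and 208471 of the leukocyte UMIs. *Cxcr3* went from -0.061 to 0.17 and *Cxcr6* from -0.16 to 0.087. *Ccr9* went from -0.54 to 0.093, and to -0.15 when the plasma cell-like cells, 6 of them in NASH with 6 *Ccr9* UMIs, were left out.

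**Figure D4:**
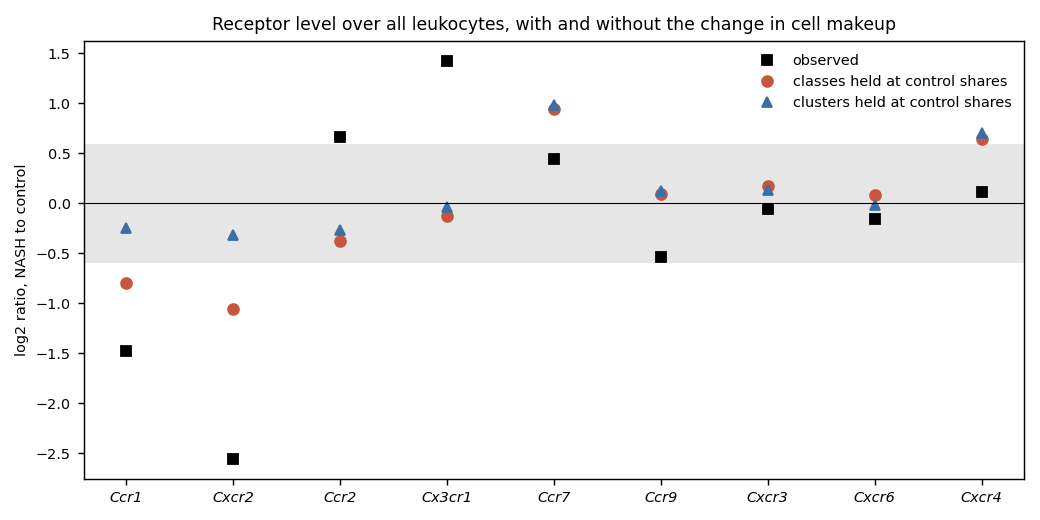
Log2 ratio of the NASH to the control level over all leukocytes for each receptor gene, as observed (black squares), with each class at its control share of UMIs (red circles) and with each cluster at its control share (blue triangles). The grey band marks ratios within 1.5 times. *Cx3cr1* moves from 1.43 to -0.13 and *Cxcr2* from -2.56 to -1.06, while *Cxcr4* moves up from 0.11 to 0.64.

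Receptors were also compared within the same cells, after thinning. Of T cell-like cells of both libraries with a *Cxcr3* UMI 47.1% (38.6 to 55.8) also held a *Cxcr6* UMI, against 31.9% (28.5 to 35.5) of those without, and 32.6% (24.9 to 41.1) held a *Ccr2* UMI against 21.1% (18.2 to 24.3). By library the *Cxcr6* shares were 42.3% (31.2 to 54.0) against 32.4% (28.1 to 36.9) in control and 53.3% (40.0 to 66.3) against 31.1% (25.5 to 37.2) in NASH cells. Those of *Ccr2* were 29.5% (19.7 to 40.9) against 21.9% (18.1 to 26.0) and 36.7% (24.6 to 50.1) against 19.8% (15.1 to 25.3). Within a library only the *Cxcr6* intervals of NASH cells did not overlap. Over both libraries *Cxcr6* was found in 1 of 37 T cell-like cells with *Ccr7*, 2.70% (0.0684 to 14.2), against 35.9% (32.5 to 39.3) without it. With *Cxcr4* its share was 14.8% (6.98 to 26.2) against 36.3% (32.0 to 40.9) without in control cells, and 17.1% (9.43 to 27.5) against 41.1% (34.8 to 47.6) in NASH cells. In NASH macrophage-like cells *Cx3cr1* was found in 45.3% (36.1 to 54.8) of cells with *Ccr2* and 25.6% (19.1 to 33.0) of cells without, and in the 53 control cells the shares were 40% (21.1 to 61.3) and 50% (30.6 to 69.4). In NASH neutrophil-like cells *Cxcr2* was found in 83.3% (68.6 to 93.0) of cells with *Ccr1* and 49.3% (37.2 to 61.4) of cells without, and in control cells the shares were 94.3% (90.6 to 96.8) and 95.5% (91.6 to 97.9). The shares are over whole classes. The clusters joined in them differed in *Ccr1* and *Cxcr2* (neutrophil-like) and in *Cxcr4* and *Cxcr6* (T cell-like), and pairs within a cluster were not compared. The intervals treat cells as independent, which cells of 1 pool are not.

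For each member the 3 genes with the most similar level were found over the 18 points of class and library with at least 30 cells, among 5924 genes, as a description. *Cxcr2* was closest to the neutrophil granule gene *Lcn2* (Pearson's r = 0.986), *Lrg1* and *Chil1*, and *Ccr1* to *Bst1* (0.958), *Clec4d* and *Ptgs2*. *Cxcr6* was closest to the T cell receptor complex gene *Cd3e* (0.998), *Gm2682* and *Cd3g*, and *Cxcr3* to *Cd8a* (0.949), *Lat* and *Klrd1*. *Ccr2* was closest to *Ank* (0.866), *Cx3cr1* and *Mthfd2*, and *Cx3cr1* to *Flt1* (0.897), *Mcub* and *Cyp4f16*. *Ccr9* was closest to *Pacsin1* (0.896), *Dap* and *Kantr*, and *Ccr7* to *N4bp2* (0.886), *Btla* and *Fchsd2*. *Cxcr4* was closest to the early response gene *Ier5* (0.909), *Nfkbid* and *Brd2*. The points share libraries, and a few classes with high values set most of these correlations.

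Other chemokine receptor genes with at least 50 UMIs in leukocytes were set beside the members. *Ccr6* (-1.52), *Cxcr5* (-1.36), *Cxcr1* (-1.56) and *Ccr10* (-3.10) were lower over all leukocytes, *Ccrl2* (0.67) was higher, and *Ccr3* (-0.11) was neither. Within the class that held most of their UMIs none of these 4 lower genes was called. *Ccr6* and *Cxcr5*, known from B cells and their follicles, had ratios of -0.12 (-0.74 to 0.43) and -0.12 (-0.52 to 0.25) in B cell-like cells, *Cxcr1* one of -0.06 (-0.79 to 0.57) in neutrophil-like cells, and *Ccr10* one of 0.31 (-1.28 to 1.37) in plasma cell-like cells. *Ccrl2*, an atypical receptor that binds chemerin, stood at 1101 CPM in control and 2894 CPM in NASH neutrophil-like cells, a ratio of 1.39 (1.23 to 1.56). It was called lower in T cell-like cells, at -0.72 (-1.61 to 0.051), and in monocyte-like cells, at -0.63 (-1.24 to -0.061).

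Of 21 chemokine genes analysed as ligands 16 had enough UMIs in leukocytes, and 9 were higher in NASH cells and 1 lower, beside 7.3% and 9.76% of all genes. The highest ratios were those of the CXCR2 ligand *Cxcl1* (3.62, from 11 control and 98 NASH UMIs), of *Ccl7* (2.28), a CCR2 ligand, of *Ccl9* (2.17), a CCR1 ligand, and of the CCR2 ligand *Ccl2* (1.44). The 5 other higher ones lay between 0.86 (*Cxcl16*) and 1.41 (*Ccl4*), and the lower one was *Cxcl3*, with a ratio of -0.73 (-1.66 to 0.095). The median ratio of the ligands was 0.88. Within macrophage-like cells 7 of 11 ligands were higher and 3 lower, beside 14.7% and 14.9% of all genes, and within Kupffer cell-like cells 3 of 12 were higher and 2 lower, beside 4.8% and 3.76%. The CXCR3 ligands *Cxcl9* and *Cxcl10* were among the lower ones in both classes, at -1.13 (-1.27 to -0.99) and -1.64 (-1.90 to -1.37) in macrophage-like and -1.10 (-1.42 to -0.79) and -0.77 (-1.06 to -0.50) in Kupffer cell-like cells, while the *Cxcl9* ratio over all leukocytes was 0.90. These ligands beyond the first 4 were named after their values had been seen. Of 33 genes of receptor signalling, such as G protein subunits, receptor kinases and arrestins, 2 were higher and 0 lower, the receptor kinase gene *Grk3* (0.73) and *Fnbp1l* (0.70) being the higher ones, beside 7.3% and 9.76% of all genes, and the median ratio of the 33 was 0.015. Within classes the lower ones were 7 of 28 in neutrophil-like cells (median -0.37), 7 of 31 in macrophage-like cells (-0.31) and 5 of 23 in NK cell- or ILC-like cells (-0.18), beside 19.9%, 14.9% and 6.61% of all genes, and at most 3 in any other class. In neutrophil-like cells 2 were higher.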

How the data were processed

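The deposited values are UMI counts per gene and cell, made by the authors with the BD Rhapsody whole-transcriptome software from cells pooled over 3 mice per diet. The reference was GRCm38, with gene models not given in the sources used here. The tables held 4336 control and 3893 NASH cells (11452972 and 9326723 UMIs) and 16383 genes, which run alphabetically to *Rad54l2*, and later genes were not analysed here. The NASH table has no header line, so its columns were read as if ordered like those of the control library. Over 100 columns on each side of every member, log2 column sums of the libraries correlated at 0.970 to 0.974 in this order and at 0.106 to 0.276 when shifted by 1 column.

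Cells with at least 500 UMIs and 200 genes were clustered in Seurat 5.3.0 (R 4.3.3) with log normalization, 2000 variable genes, regression on UMIs, 50 principal components and the Louvain method, all cells at resolution 0.6 and the leukocytes again at resolution 1. Chemokine receptor genes were left out of the variable genes. A cluster was named when at least 3 markers of a class stood among its 50 leading genes. Doublets were kept. Scrublet (scanpy 1.11.5) called 52 control and 3 NASH cells, and its score was therefore also used. Levels, exact intervals and ratios were computed in Python 3.11.15 with scipy 1.17.1, and the ratio procedure was tested on simulated data. Since each diet had 1 library, no test between diets was made, and calls rest on size. The intervals cover counting error, and an effect of depth on cluster membership was not tested. The 2 Kupffer cell-like clusters had median depths of 3003 and 9059 UMIs.

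The members, markers and gene lists were chosen with earlier results of these data known. The text names the 9 members, other receptors with at least 50 UMIs (1 is not reported here), up to 4 ligands and 4 signalling genes with the largest ratios, the 3 most similar genes per member (Pearson's r of log2 CPM plus 10, genes with at least 200 UMIs) and leading genes of clusters, taken among genes in at least 25% of the cells. Further genes are said to be named after their values had been seen. Alternatives were the added UMI, cell and gene filters, the scaling, thinning, doublets, the clustering resolution, classes from single-cell markers and repeats of the clustering.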

Additional observations from a re-analysis of the deposited data

Results flagged for a closer look

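*Cx3cr1* went in opposite directions in different classes under the same diet contrast. Its log2 ratio of NASH to control was 0.86 in Kupffer cell-like cells, from 36 control and 47 NASH UMIs, and 0.48 there without the NASH cell of most UMIs. The ratio was -1.02 in T cell-like cells and -0.91 in macrophage-like cells. The macrophage-like ratio was within the called size at resolution 0.6 (-0.56) and with both clustering steps repeated (-0.22). With classes from single-cell marker UMIs the Kupffer cell-like ratio was 0.47, also within the called size. The difference between classes was not tested, since each diet gave 1 library.

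Values past 1.5 times were also found in cells that the comparisons between leukocyte classes do not use. In endothelial-like cells the log2 ratio was 1.23 for *Ccr2*, from 25 control and 65 NASH UMIs, and 0.71 for *Cxcr4*, from 51 and 92 UMIs. *Cxcr2* went the other way there, from 17.5 CPM in control to 5.12 CPM in NASH cells (50 and 16 UMIs). Of 6695 genes with enough UMIs in this class, 4.63% were higher and 5.57% lower by the called size. These cells serve here as the comparison for free RNA, and over both libraries their levels were 15.1 CPM for *Ccr2* and 23.9 CPM for *Cxcr4*. In 92 cells led by genes of the cell cycle the ratio of *Cxcr4* was 0.65, from 94 and 116 UMIs. *Cx3cr1* was lower in NASH cells there, from 140 to 30.8 CPM (46 and 8 UMIs). So was *Cxcr3*, from 200 to 73.2 CPM (66 and 19 UMIs). Of 2530 genes with enough UMIs in these cells, 18.7% were higher and 14.8% lower by the called size. None of these differences was tested.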

How the results depend on the processing

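Class membership moved the ratios most. With clustering at resolution 0.6 the log2 ratio of *Ccr2* in macrophage-like cells turned from -0.64 to 0.23 and that of *Cxcr4* from 0.72 to -0.10, *Ccr2* in monocyte-like cells went from -0.52 to -1.11 and *Cx3cr1* from 0.29 to -0.52, and at control makeup *Ccr2* stood at -0.50 and *Cx3cr1* at -0.33. With both clustering steps repeated on rounded components (93.6% of 4176 leukocytes kept their class) macrophage-like *Ccr2* was 0.57, monocyte-like *Ccr2* -1.12 and *Cx3cr1* -0.51, and *Ccr7* at control makeup 0.70. In classes from single-cell marker UMIs *Ccr7* in dendritic cell-like cells turned from 2.00 to -2.60, and *Ccr1* and *Cxcr2* in neutrophil-like cells were -0.54 and -0.82 and monocyte-like *Cx3cr1* -0.039. With the makeup held by cluster, *Ccr1* was -0.24, *Ccr2* -0.27 and *Cxcr2* -0.32, and *Ccr9* without plasma cells was -0.15. The 18 calls among member and class pairs became 8 at a fold of 2 and 61 without the UMI minimum, and the 1328 calls among all genes 573 and 6397. Thinning to 500 UMIs lowered the share of cells with a UMI from 84.2% to 51.4% (*Ccr1*), 93.9% to 88.2% (*Cxcr2*) and 88.7% to 68.8% (*Cxcr4*) in neutrophil-like cells, from 58.1% to 44.5% (*Ccr2*) and 82.6% to 45.2% (*Cx3cr1*) in monocyte-like cells, from 28.2% to 16.2% (*Ccr7*) in B cell-like cells, and from 10.1% to 4.86% (*Ccr9*), 38.6% to 16.4% (*Cxcr3*) and 55.0% to 34.4% (*Cxcr6*) in T cell-like cells. All 111 ratios compared stayed within their 95% counting intervals with 1 UMI added, with cells of at least 1000 UMIs, under 2 other scalings and without called doublets, as did 109 without the 5% highest doublet scores, 54 at resolution 1.5, and 120 values under each of 2 repeats of the leukocyte clustering. Under these the one call by size that was lost was *Ccr9* in T cell-like cells (-0.59), at -0.56 in cells of at least 1000 UMIs, -0.57 with the median scaling and -0.58 with 1 UMI added. Of the 18 calls 3 were lost at resolution 0.6 and 4 each with both steps repeated and with single-cell markers. The repeats, doublet scores, cluster makeup, and plasma and mixed cell alternatives were chosen after seeing the data, and the cause of the shifts beyond changed cell classes was not tested. No paired analysis was possible because each diet had 1 library. Without replicates the spread between mice is not known, and classes of few cells carry wide intervals.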
